A study of Mus musculus with 19 samples.

Results

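The thrombospondin and Timp genes of the mouse were followed through 3 comparisons of retina libraries that differ in the POU family transcription factor gene Pou3f1. The members are the 8 genes whose symbol is Thbs1 to Thbs4 or Timp1 to Timp4, of 22294 genes listed at 48 h, 23635 genes at 14 days and 35734 genes at E17.5. All 8 are listed in each comparison, and 5, 8 and 7 of them, in that order, have an adjusted p. The families were chosen from earlier results of these same comparisons, so the fold changes given for the members describe them and are not independent tests.

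For the overexpression comparisons, eyes of wild-type CD1 pups were electroporated in vivo on postnatal day 1, and GFP-positive cells were later isolated by flow sorting and combined to about 150000 cells per replicate. The groups were 3 Pou3f1 and 3 Gfp libraries collected 48 h after electroporation, and 5 Pou3f1 and 4 Gfp libraries collected at 14 days. The protocol text describes the late collection as postnatal day 14. Whole retinas at E17.5 on the C57B6J strain gave 2 homozygous Pou3f1 knockout and 2 heterozygous libraries, so the control retinas of that comparison already carry 1 mutant copy. The labels name neither the promoter of the plasmids nor the mutant allele, and the deposited E17.5 table is named for an embryonic day that differs from the labels. Sorted replicates are pooled cells, and the labels do not say whether the 2 libraries of an E17.5 group came from separate litters.

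Each fold change and p of a single comparison is the authors' own. The deposited tables give a log2 fold change and an adjusted p per gene and, for the overexpression comparisons, a standard error (SE) and a mean normalized count, which is taken over Pou3f1 and Gfp libraries together. No value per library or per group is given, so neither the spread within a group nor any overlap between groups can be shown, and the depth of single libraries is unknown. Over the listed genes the mean counts added up to 16020842 at 48 h and 38507471 at 14 days, and the median SE among genes with an adjusted p was 0.199 and 0.150. Pou3f1 itself was higher in Pou3f1 cells by 0.91 ± 0.26 at 48 h and 5.57 ± 0.27 at 14 days and fell by 0.69 in knockout retinas (adjusted p = 0.0233, 3.40e-88 and 1.98e-08 in the authors' deposited tables). Of 12 rod photoreceptor markers, 12 are listed at 14 days and 4 at 48 h. The words rose and fell are kept for genes whose adjusted p by the authors was under 0.05. In bulk libraries such as these, fewer cells of a type and less RNA per cell cannot be told apart.

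Thrombospondins are large secreted glycoproteins that bind receptors, growth factors and proteases in the extracellular matrix. In the brain, astrocytes release them and they promote the formation of synapses, an action that runs through the calcium channel subunit encoded by Cacna2d1. Timps (tissue inhibitors of metalloproteinases) are small secreted proteins that block matrix metalloproteinases and related proteases. TIMP3 is known in the human eye as a matrix protein below the pigment epithelium, where mutations cause Sorsby fundus dystrophy.

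The DNA in front of the Timp genes is shown because Timp3 differs there in base composition from Timp1 and Timp4. RefSeq (GRCm38.p6) gives a promoter for 7 of the 8 members, all except Thbs1, and the 250 bases before its start were read for each. In GENCODE, 203 of these bases for Timp2 and 40 for Timp3 lie in annotated exons, so the whole Timp2 window lies inside the GENCODE gene. The windows of the other members hold 0 exon bases. Printed 5′ to 3′ along the gene are the whole windows of Timp1 and Timp4 and the 210 bases of Timp3 before the first exon base. Capitals mark a GC box, the letters GGGCGG on either strand.
Timp1 (chrX:20869916-20870165, plus strand): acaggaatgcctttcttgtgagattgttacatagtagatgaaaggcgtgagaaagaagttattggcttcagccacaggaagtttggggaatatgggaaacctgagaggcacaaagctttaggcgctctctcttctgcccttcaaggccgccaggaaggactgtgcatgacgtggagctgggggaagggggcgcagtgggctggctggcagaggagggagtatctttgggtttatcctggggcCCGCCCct
Timp3 (chr10:86300162-86300371, plus strand): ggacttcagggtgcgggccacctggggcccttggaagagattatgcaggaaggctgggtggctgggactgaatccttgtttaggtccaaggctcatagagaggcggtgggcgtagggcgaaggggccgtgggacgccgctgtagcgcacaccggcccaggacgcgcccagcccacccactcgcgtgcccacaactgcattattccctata
Timp4 (chr6:115252206-115252455, minus strand): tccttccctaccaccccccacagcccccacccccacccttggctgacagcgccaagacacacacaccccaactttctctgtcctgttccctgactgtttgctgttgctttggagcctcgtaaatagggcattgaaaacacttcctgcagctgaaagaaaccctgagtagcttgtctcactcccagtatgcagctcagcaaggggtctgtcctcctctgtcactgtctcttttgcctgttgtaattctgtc

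The printed stretch of Timp3 is 63.8% G and C and holds 13 CpG dinucleotides. Those of Timp1 and Timp4 have 54.4% and 53.6% G and C, with 6 and 2 CpG dinucleotides. Across all 32851 RefSeq promoters of 250 bases the medians are 52.4% and 6. The whole windows of Timp2 and Timp3 have 68.0% and 65.6% G and C. Those of Thbs2, Thbs3 and Thbs4 have 46.8%, 58.8% and 70.8%. The highest share is thus that of Thbs4, one of the members with the lowest levels. A GC box begins 8 bases before the start of Timp1, and Timp4 holds 0. Timp2 and Timp3 hold 1 GC box each, 37 and 15 bases before the RefSeq start, which for Timp3 is in the exon part and not printed. Thbs2, Thbs3 and Thbs4 hold 0, 1 and 3 GC boxes. The GC box occurs in 32.7% of all promoters. The octamer ATGCAAAT, a sequence that POU proteins can bind, is on neither strand in these letters in any of the 7 member windows, and it occurs in 1.60% of all promoters. The letters TATAAA occur on either strand in 12.4% of promoters and among the 7 members only before Thbs2. The motifs did not overlap in the stretches printed.

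Levels were compared between members as mean normalized count per kb of the longest annotated transcript, and within a time only, since the tables were normalized separately. At 14 days Timp2 stood at 787 per kb, Timp3 at 528 and Thbs1 at 192. Thbs3 followed at 28.7, with Timp1 between it and Thbs2. Thbs2 at 8.56, Thbs4 at 2.76 and Timp4 at 2.22 per kb were the lowest. At 48 h the order was Timp2 at 265 per kb, Thbs1 at 83.9, Timp3 at 51.0, Thbs3 at 35.3 and Timp1 at 6.78, and then Thbs2 at 1.47, followed by Thbs4 and by Timp4 at 0.488. Thus Timp2, Timp3 and Thbs1 were the members with the highest levels per kb at both times. These levels pool Pou3f1 and Gfp libraries. That of Thbs1 at 14 days includes its 9.23-fold higher level in Pou3f1 cells, so its place among Gfp cells alone is not known. Without values per library it cannot be said which neighbours in these orders differ. With the union of all exons as the length, Timp3 stood at 29.6 per kb at 48 h, as did Thbs3, and at 306 per kb at 14 days.

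Among the thrombospondins, Thbs1 rose in Pou3f1 cells at 14 days, while Thbs2, Thbs3 and Thbs4 did not pass there. Among the Timps, Timp3 fell in Pou3f1 cells at both times. Of the 5 members with an adjusted p at 48 h 0 rose and 1 fell, against 3.04% of all 14714 tested genes called in either direction, 1.48% as higher and 1.56% as lower. Of the 8 members at 14 days 1 rose and 1 fell, against 20.7% of 17789 tested genes called, 11.5% higher and 9.21% lower. Of the 7 members at E17.5 0 rose and 0 fell, against 10% of 14821 tested genes called, 4.70% higher and 5.34% lower. With the limit set at an unadjusted p under 0.05, the members numbered 3 of 8, 2 of 8 and 2 of 8, in the order of the comparisons, where 9.82%, 24.5% and 13.1% of all genes with a p-value met that limit. These are counts over a few genes, and the members' results lie in single genes.

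**Figure D1:**
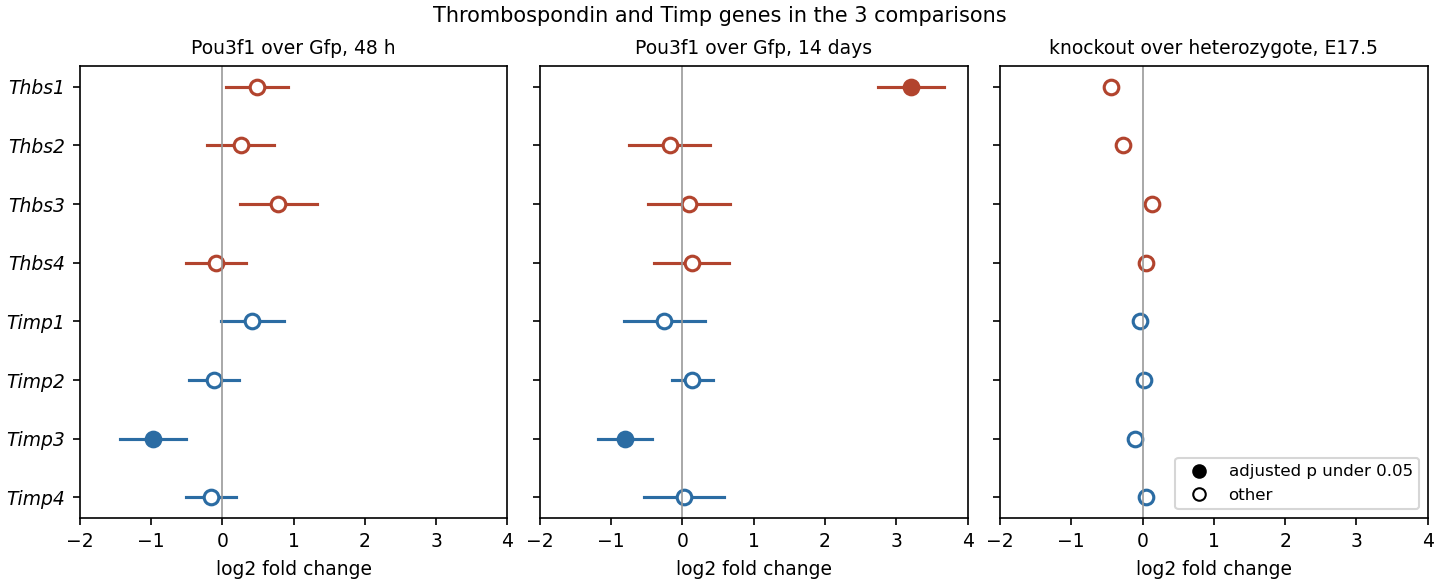
Log2 fold change of each member (rows) in the 3 comparisons (panels), as deposited by the authors. Bars are 95% intervals from the deposited SE, which the E17.5 comparison does not give, and filled points have an adjusted p under 0.05. Thbs1 at 14 days lies at 3.21, and Timp3 lies at -0.97 at 48 h and -0.81 at 14 days.

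Thbs1 (ENSMUSG00000040152, chr2:118111876-118127133 in mm10, plus strand, 22 exons in its longest transcript) encodes a thrombospondin that can activate latent TGF-beta and bind the receptors CD36 and CD47. At 14 days its mean count was 1121, above that of 63.4% of tested genes. The authors' deposited table gives a log2 fold change of 3.21 ± 0.24, or 9.23-fold higher in Pou3f1 than in Gfp cells (95% interval of the log2 value 2.74 to 3.67, adjusted p = 5.57e-38). That is the 14th largest of 2051 rises, by log2 fold change. At 48 h its mean count was 491 and the authors' deposited table gives 0.49 ± 0.22 (95% interval 0.05 to 0.93, p = 0.0292, adjusted p = 0.263), which did not pass. In knockout retinas the authors' deposited table gives -0.44 (p = 0.0106, adjusted p = 0.0845), which did not pass either. The estimate was thus positive in both overexpression comparisons and negative in the knockout comparison, and 1 of these 3 passed.

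The 14 day minus 48 h difference for Thbs1 was 2.72 ± 0.33 on the log2 scale (95% interval 2.08 to 3.36). A two-sided z test on this difference was run for all 14580 genes with an adjusted p at both times, of which 6.14% passed, and for Thbs1 it gave an adjusted p = 1.08e-13. The times differ in the age of the cells, in the sum of mean counts and in the number of libraries. They also differ in the log2 fold change of Pou3f1 itself, 0.91 at 48 h and 5.57 at 14 days in the authors' deposited tables. The mean count of Pou3f1 over Pou3f1 and Gfp libraries together was 37279 at 48 h and 16972 at 14 days. The smaller fold change at 48 h thus does not mean few Pou3f1 reads, and its level in Gfp cells alone is not given. The differences between the times cannot be told apart here. The early and late libraries are separate, so the comparisons share no control.

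Thbs2 and Thbs3 encode the most similar and a more distant relative of Thbs1, and neither passed in any comparison. Thbs2 (ENSMUSG00000023885, chr17:14665500-14694235, minus strand) had mean counts of 8.67 at 48 h and 50.5 at 14 days. The authors' deposited tables give Thbs2 0.26 ± 0.24 at 48 h, -0.18 ± 0.29 at 14 days and -0.27 in knockout retinas (adjusted p = 0.704, 0.720 and 0.209). The E17.5 value of Thbs2 had an unadjusted p = 0.0413, so that Thbs1 and Thbs2 were the members under that unadjusted limit at E17.5, both with lower values in knockout retinas.

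Thbs3 (ENSMUSG00000028047, chr3:89215180-89226837, plus strand) forms pentamers, as Thbs4 does. Its mean counts were 143 at 48 h and 116 at 14 days. The authors' deposited tables give 0.79 ± 0.27 at 48 h, 0.09 ± 0.29 at 14 days and 0.14 in knockout retinas (adjusted p = 0.0934, 0.870 and 0.708). At 48 h the value of Thbs3 was larger than that of Thbs1, with a 95% interval of 0.25 to 1.32 and an unadjusted p = 0.00399. The 14 day minus 48 h difference of -0.70 ± 0.40 (95% interval -1.49 to 0.09) did not pass the z test over all genes (adjusted p = 0.339). Thbs3 lies within the span of Mtx1, a mitochondrial import gene on the opposite strand, and 4.71% of its 31-base words also occur in Mtx1 transcripts. Mtx1 had 0.24 ± 0.16 at 48 h, 0.20 ± 0.08 at 14 days and 0.12 in knockout retinas in the authors' deposited tables, none of which passed (adjusted p = 0.524, 0.0535 and 0.636).

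Thbs4 (ENSMUSG00000021702, chr13:92751590-92794818, minus strand), which in the mouse nervous system is made by reactive astrocytes, was close to the limit of detection. Its mean counts were 4.48 at 48 h, without an adjusted p, and 8.81 at 14 days. The authors' deposited tables give -0.09 ± 0.21 at 48 h, 0.13 ± 0.27 at 14 days and 0.05 in knockout retinas. The 14 day interval of -0.40 to 0.66 (adjusted p = 0.790) takes in both lower and higher levels in Pou3f1 cells. The smallest change of Thbs4 that could be detected at this depth was not worked out. The deposited fold changes of genes with so few reads carry a small SE, such as 0.18 for Timp4 at 48 h, as fold changes shrunken toward 0 do, and shrinkage understates the change of low genes.

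**Figure D2:**
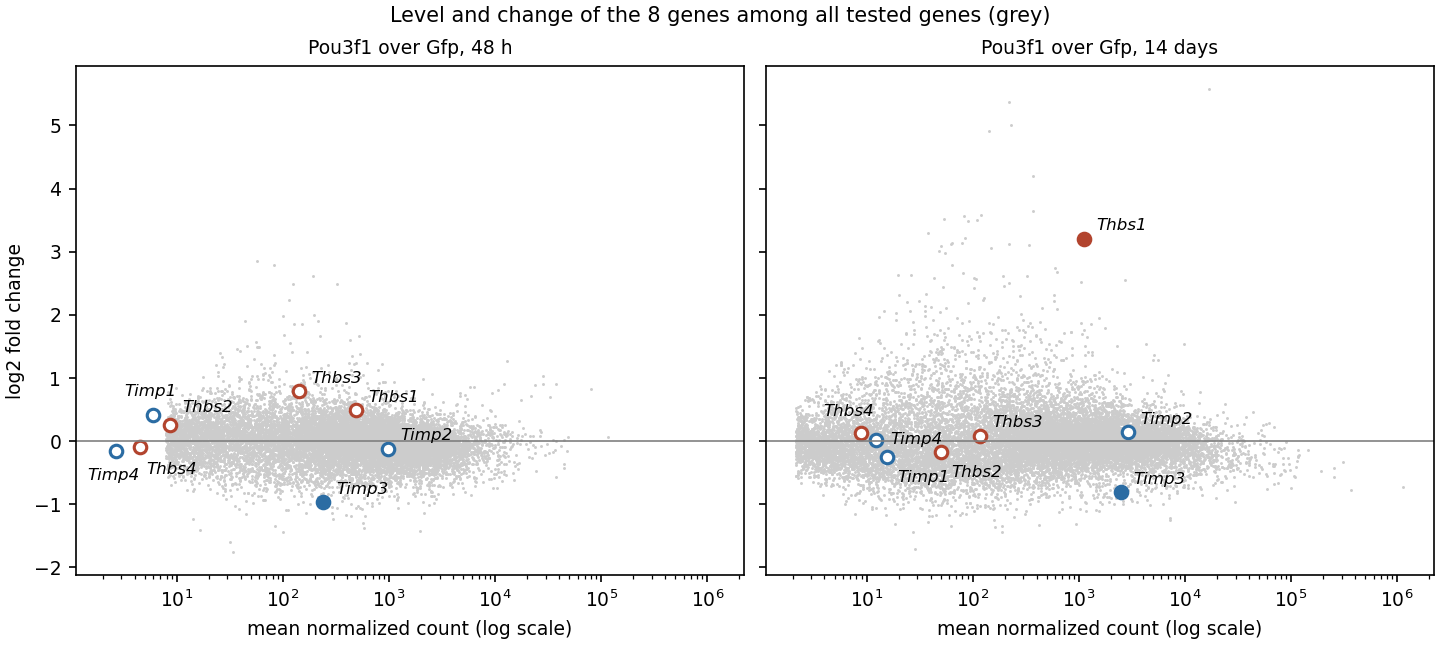
Log2 fold change (vertical) against mean normalized count on a log scale (horizontal) for all genes with an adjusted p (grey) and the 8 members (circles, filled where the adjusted p is under 0.05) at 48 h and 14 days. Thbs1 at 14 days combines a mean count of 1121 with a log2 fold change of 3.21, and Thbs4, Timp1 and Timp4 lie at mean counts of 15.4 or less at both times.

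Timp3 (ENSMUSG00000020044, chr10:86300372-86349506, plus strand, 5 exons in its longest transcript) encodes the Timp that stays bound to the matrix and also inhibits Adam and Adamts proteases. At 48 h its mean count was 241, and the authors' deposited table gives -0.97 ± 0.23, a level 0.511 times that of Gfp cells (95% interval -1.43 to -0.51, adjusted p = 0.00298). At 14 days its mean count was 2491, and the authors' deposited table gives -0.81 ± 0.19, a level 0.572 times that of Gfp cells (95% interval -1.18 to -0.43, adjusted p = 0.000635). By size these were the 40th of 229 and the 236th of 1639 falls. Neither fall reached 2-fold. The 14 day minus 48 h difference was 0.16 ± 0.30, with a 95% interval of -0.43 to 0.76 and an adjusted p = 0.831 in the z test over all genes, so a difference of up to 0.76 lies within the interval. In knockout retinas the authors' deposited table gives Timp3 -0.11 (adjusted p = 0.809), which did not pass and has the same sign as under overexpression.

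**Figure D3:**
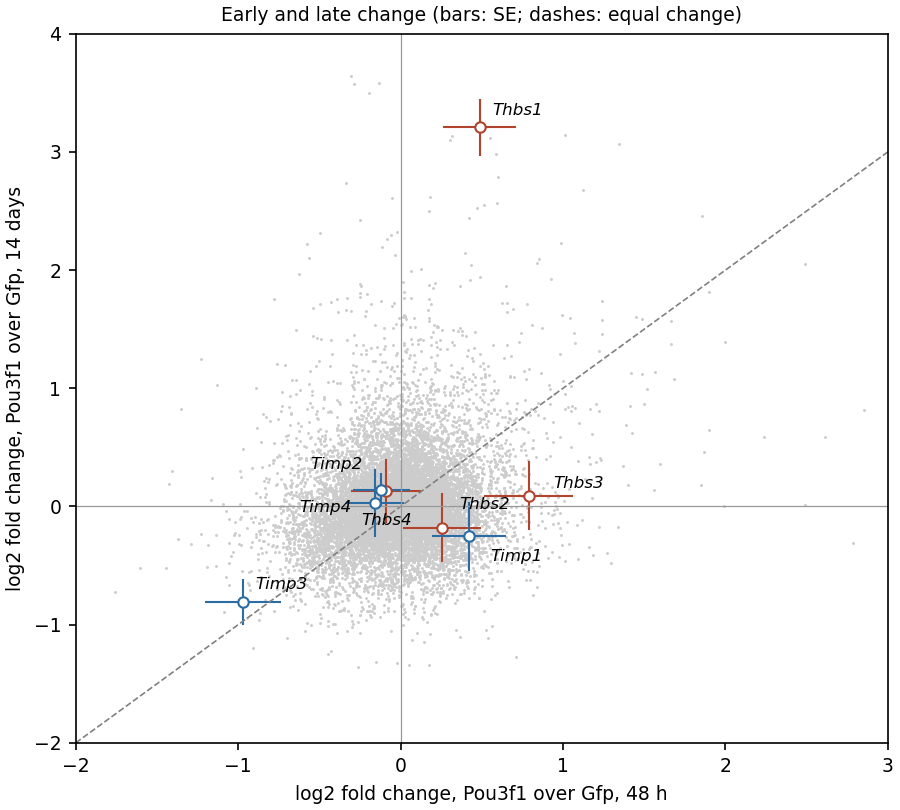
Log2 fold change of Pou3f1 over Gfp cells at 14 days (vertical) against 48 h (horizontal) for genes with an adjusted p at both times (grey) and for the 8 members with their SE (bars). The dashed line marks equal change. Thbs1 lies 2.72 above it, and Timp3 lies 0.16 above it at the lower left.

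Timp2 had the highest level per kb of the members at both times and did not pass in any comparison. Timp2 (ENSMUSG00000017466, chr11:118301069-118355740, minus strand) encodes an inhibitor that also takes part in the activation of the Mmp2 proenzyme. Its mean counts were 982 at 48 h and 2920.0 at 14 days. The authors' deposited tables give -0.12 ± 0.18 at 48 h, 0.14 ± 0.15 at 14 days and 0.02 in knockout retinas (adjusted p = 0.837, 0.535 and 0.947). Its 14 day interval of -0.14 to 0.43 does not overlap that of Timp3. Lgals3bp, its nearest protein-coding neighbour on the right, rose by 1.65 ± 0.28 at 14 days (adjusted p = 1.89e-07 in the authors' deposited table).

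Timp1 (ENSMUSG00000001131, chrX:20870166-20874735, plus strand), an inhibitor induced in injury and inflammation, had mean counts of 5.98 at 48 h and 15.4 at 14 days. The authors' deposited tables give 0.42 ± 0.23 at 48 h without an adjusted p (p = 0.0619), -0.25 ± 0.29 at 14 days and -0.04 in knockout retinas (adjusted p = 0.592 and 0.939). Timp4 (ENSMUSG00000030317, chr6:115241892-115252205, minus strand) had mean counts of 2.68 and 12.2. The authors' deposited tables give Timp4 -0.16 ± 0.18 at 48 h, 0.03 ± 0.29 at 14 days (adjusted p = 0.965) and 0.04 in knockout retinas, with no adjusted p at 48 h and E17.5. The 14 day intervals of Timp1, -0.82 to 0.32, and of Timp4, -0.54 to 0.59, both overlap that of Timp3, -1.18 to -0.43. No test between members was run.

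Timp1, Timp3 and Timp4 share a position that Timp2 does not. In the GENCODE mouse release 21 annotation (mm10) each lies inside a synapsin gene and on its opposite strand, Timp1 in Syn1, Timp3 in Syn3 and Timp4 in Syn2. Synapsins are phosphoproteins that tether synaptic vesicles. Exons of Timp1 and Syn1 share 0 bases, those of Timp3 and Syn3 share 1733 and those of Timp4 and Syn2 share 90, counting all annotated transcripts. Accordingly 21.9% of the 31-base words in Timp3 transcripts also occur in transcripts of other genes, 1707 of them in Syn3, while the share is 1.25% for Timp4 and 0% for Timp1 and Timp2. For Thbs1 the share is 2.68%, with 152 words in Gm29233. That noncoding gene on the opposite strand shares 208 exon bases with Thbs1 and is not listed in any comparison. No member shares such a word with another member. Whether the authors' quantification used strand is not given in the sources used here. Reads from the shared stretches of Timp3 with Syn3 and of Thbs1 with Gm29233 may thus not be told apart.

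**Figure D4:**
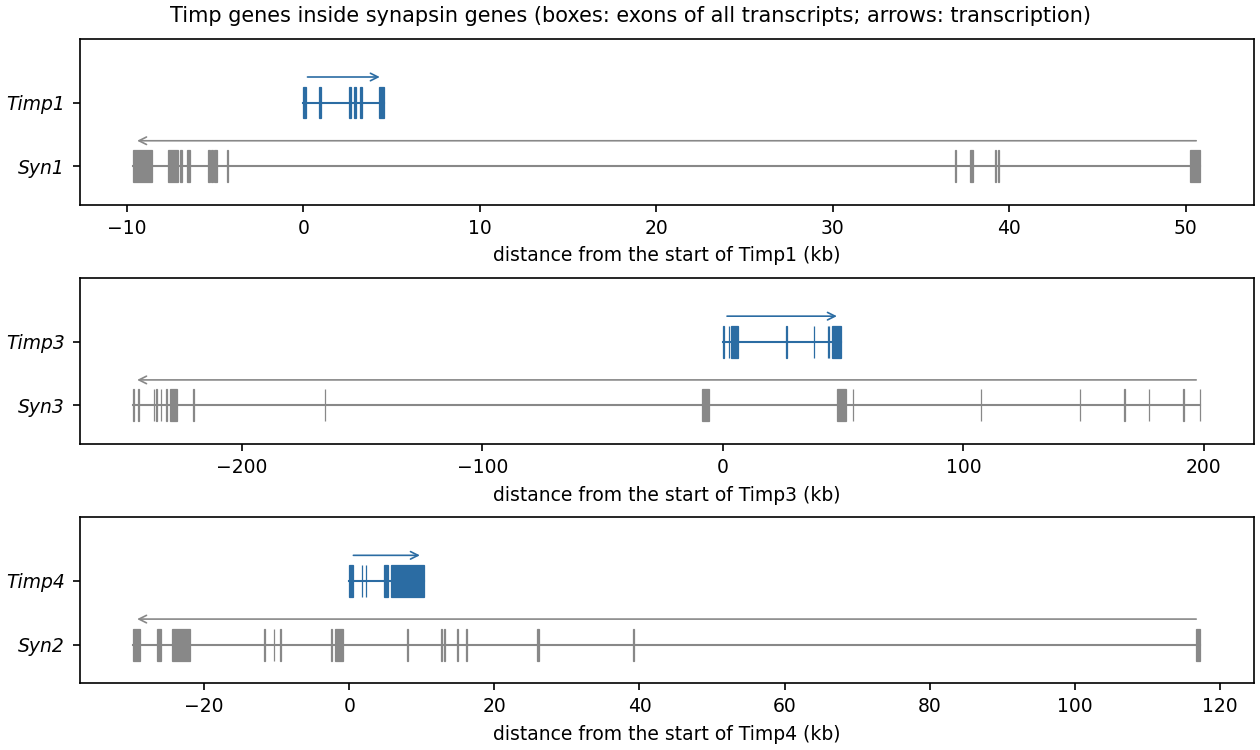
Gene models of Timp1, Timp3 and Timp4 (blue) and of the synapsin gene around each (grey), with the distance from the Timp gene's start in kb on the horizontal axis. Boxes are exons of all annotated transcripts and arrows point along transcription. Each Timp gene runs against its synapsin gene, and exons of Timp3 and Syn3 share 1733 bases at the far end of Timp3.

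The synapsin genes around Timp1, Timp3 and Timp4 had values of their own. At 48 h the authors' deposited table gives -0.36 ± 0.25 for Syn1, -0.31 ± 0.27 for Syn2 and -0.36 ± 0.29 for Syn3, none of which passed (adjusted p = 0.540, 0.682 and 0.636). At 14 days Syn1 rose by 0.45 ± 0.13 (adjusted p = 0.00571 in the authors' deposited table), while Syn2 at -0.28 ± 0.20 and Syn3 at 0.28 ± 0.15 did not pass (adjusted p = 0.332 and 0.189). In knockout retinas Syn3 fell by 0.65 (adjusted p = 0.000215 in the authors' deposited table), and Syn1 at -0.20 and Syn2 at -0.21 did not pass (adjusted p = 0.391 and 0.567). Mean counts of Syn3 were 70.4 at 48 h and 187 at 14 days, below those of Timp3 at 241 and 2491.

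Matrix metalloproteinases are the main proteases that Timps inhibit. For this list and the partner lists after it, the shares of all tested genes called higher and lower were 1.48% and 1.56% at 48 h. They were 11.5% and 9.21% at 14 days, and 4.70% and 5.34% at E17.5. Of 11 matrix metalloproteinase genes with an adjusted p at 48 h, 0 rose, 2 fell and 9 did not pass, with a median log2 fold change of -0.09, where the median of all tested genes was -0.01. Mmp2, a gelatinase, fell by 0.82 and the membrane-bound Mmp15 by 0.48 (adjusted p = 0.0306 and 0.0319 in the authors' deposited table). Of 14 at 14 days, 4 rose, 0 fell and 10 did not pass, with a median of 0.07 against -0.01 for all tested genes. The membrane-bound Mmp16 and Mmp24, at 0.99 ± 0.19 and 0.67 ± 0.13, led these (adjusted p = 4.89e-06 and 1.97e-05 in the authors' deposited table). Mmp9 (0.66 ± 0.25), a gelatinase, and Mmp11 (0.52 ± 0.19) were the others (adjusted p = 0.0431 and 0.0366 in the authors' deposited table). With adjustment over all genes with a p-value Mmp9 did not pass (adjusted p = 0.0572). Of 10 at E17.5, 1 rose and 1 fell, with a median of -0.18 against 0.00 for all tested genes. Mmp2 rose by 0.48 and Mmp15 fell by 0.28 in knockout retinas (adjusted p = 0.0261 and 0.00364 in the authors' deposited table), so Mmp15 fell both with added and with deleted Pou3f1.

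Adam sheddases, which release the outer parts of surface proteins, passed in single genes. Of 8, 10 and 8 with an adjusted p at the early, late and embryonic stage, 0 rose and 1 fell in each comparison, with medians of -0.08, 0.00 and -0.04. These were Adam12 at -0.86 ± 0.19, Adam8 at -0.53 ± 0.20 and Adam19 at -0.29 (adjusted p = 0.000585, 0.0416 and 0.0258 in the authors' deposited tables). With adjustment over all genes with a p-value Adam8 did not pass (adjusted p = 0.0552). Adamts and Adamtsl proteins carry repeats first described in thrombospondins. Of 22 such genes at 48 h, 1 rose and 0 fell, and of 26 at 14 days, 3 rose and 7 fell, with medians of -0.04 and -0.13. Adamts10 rose at 48 h by 0.87 ± 0.20 (adjusted p = 0.00193 in the authors' deposited table). At 14 days the proteoglycan-cutting Adamts5 fell by 1.32 ± 0.19, Adamtsl2 by 0.81 ± 0.17 and Adamts3 by 0.59 ± 0.14, and Adamts12 rose by 0.81 ± 0.22 (adjusted p between 5.47e-10 and 0.00379 in the authors' deposited table). Of 23 at E17.5, 0 rose and 4 fell, with a median of -0.12. Adamts4 fell by 0.73 and Adamts15 by 0.86 in knockout retinas (adjusted p = 1.79e-15 and 6.11e-07 in the authors' deposited table), followed by Adamts19 (-0.50) and Adamtsl1 (-0.52) (adjusted p = 0.00554 and 0.0283 in the authors' deposited table).

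Of 14 thrombospondin receptor genes with an adjusted p at 48 h, 2 rose and 1 fell, and of 16 at 14 days, 4 rose and 3 fell, with medians of -0.07 and -0.08. Cacna2d1, the receptor for the synapse-forming action of thrombospondins, rose by 0.95 ± 0.18 at 48 h and 0.95 ± 0.16 at 14 days (adjusted p = 6.53e-05 and 5.70e-07 in the authors' deposited tables). The proteoglycan gene Sdc1 rose by 0.996 ± 0.17 at 48 h and 1.62 ± 0.27 at 14 days (adjusted p = 3.99e-06 and 2.27e-07 in the authors' deposited tables). Scarb1, a lipoprotein receptor, fell by 0.46 ± 0.14 at 48 h, and at 14 days the proteoglycan gene Sdc4 fell by 0.68 ± 0.12 while the integrin gene Itga3 rose by 0.77 ± 0.14 (adjusted p = 0.0481, 4.19e-07 and 3.67e-06 in the authors' deposited tables). Of 16 at E17.5, 2 rose and 1 fell, with a median of 0.01. Cd47 rose by 0.33 and Cacna2d1 by 0.24, and Lrp1, an endocytic receptor, fell by 0.48 in knockout retinas (adjusted p = 0.0324, 0.0470 and 4.52e-06 in the authors' deposited table). With adjustment over all genes with a p-value, 1 of these 3 knockout calls held, Lrp1, and Cd47 and Cacna2d1 did not pass (adjusted p = 0.0529 and 0.0768), nor did Scarb1 at 48 h (adjusted p = 0.0728).

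Other matricellular genes, which code for regulatory proteins of the matrix, had a median of -0.30 at 48 h, -0.23 in the late and -0.09 in the embryonic comparison. Of 15 at 48 h, 0 rose and 3 fell, the neuronal matrix gene Tnr at -1.14 ± 0.26, the synapse-forming factor gene Sparcl1 at -0.93 ± 0.29 and Spon1 at -0.51 ± 0.16 (adjusted p = 0.00173, 0.0408 and 0.0443 in the authors' deposited table). With adjustment over all genes with a p-value Sparcl1 and Spon1 did not pass at 48 h (adjusted p = 0.0619 and 0.0672). Of 18 at 14 days, 2 rose and 4 fell. Ccn3, at 3.49 ± 0.28 (adjusted p = 1.68e-32 in the authors' deposited table), was the matricellular gene with a rise as large as that of Thbs1. Ccn4 (-0.97 ± 0.24), Smoc2 (-0.97 ± 0.26) and Sparc (-0.70 ± 0.21) fell at 14 days (adjusted p between 0.00103 and 0.00808 in the authors' deposited table), and Smoc2 is also the nearest protein-coding gene to Thbs2 on the left. Of 16 at E17.5, 0 rose and 4 fell, among them Tnr at -0.51 and Spon1 at -0.34 (adjusted p = 7.95e-05 and 0.00804 in the authors' deposited table).

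The TGF-beta system, whose latent ligand Thbs1 can activate, had medians of -0.04 (48 h), -0.13 (14 days) and -0.20 (embryonic retinas). Of 15 at 48 h, 0 rose and 0 fell by the authors' DESeq2 adjusted p, while at an unadjusted p under 0.05 the numbers were 0 and 3. Of 16 at 14 days, 3 rose and 1 fell. The latency protein gene Ltbp1 fell by 0.69 ± 0.17, and the receptor gene Tgfbr1 (0.30 ± 0.10) and the feedback inhibitor gene Smad7 (0.32 ± 0.11) rose (adjusted p = 0.00112, 0.0239 and 0.0246 in the authors' deposited table). Of 15 at E17.5, 0 rose and 2 fell, Tgfb3 at -0.42 and Ltbp3 at -0.41 (adjusted p = 0.000289 and 0.00677 in the authors' deposited table). Among other protease inhibitor and plasminogen genes 0 of 9 at 48 h and 0 of 9 at E17.5 passed (0 and 2 at an unadjusted p under 0.05, by the authors' DESeq2 values), with medians of -0.05 and -0.12. Of 12 at 14 days, with a median of -0.23, 0 rose and 1 fell, the cystatin gene Cst3 at -0.48 ± 0.13 (adjusted p = 0.00186 in the authors' deposited table).

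**Figure D5:**
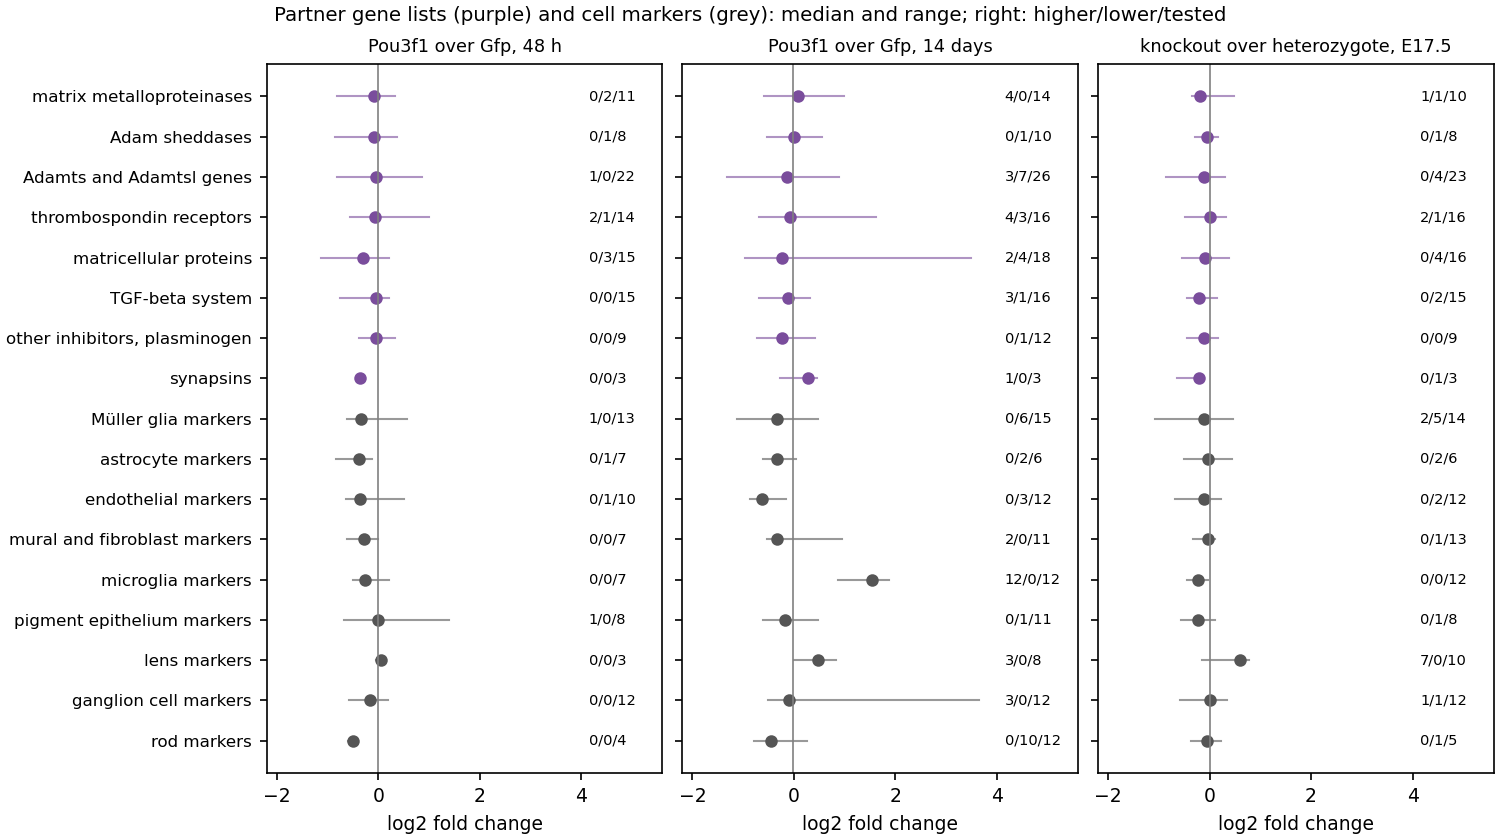
Median (point) and range (line) of the log2 fold change over the genes with an adjusted p in 8 partner lists (purple) and 9 cell marker lists (grey), by comparison (panels). The vertical line is the median of all tested genes, and the figures at the right of each panel count genes called higher, called lower and tested. At 14 days 12 of 12 microglia markers were called higher and 10 of 12 rod markers lower.

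Some marker genes of other cell types also passed at the times when Thbs1 or Timp3 passed. The counts below stand beside the shares of all tested genes, 11.5% higher and 9.21% lower at 14 days. At 48 h these shares were 1.48% and 1.56%, and at E17.5 4.70% and 5.34%. With Thbs1 at 14 days, 12 of 12 microglia markers rose, at a median of 1.55 and between 0.87 and 1.87, at mean counts from 39.1 to 991. Cx3cr1 rose by 1.66 ± 0.23 and C1qa by 1.81 ± 0.25 (adjusted p = 1.01e-10 and 3.33e-11 in the authors' deposited table). At 48 h, where Thbs1 did not pass, 0 of 7 microglia markers passed and 0 had an unadjusted p under 0.05 by the authors' DESeq2 values. Of 12 ganglion cell markers 3 rose at 14 days and 0 fell, with a median of -0.09, and the transcription factor gene Pou4f2 among them rose by 3.64 ± 0.27 (adjusted p = 7.86e-40 in the authors' deposited table). Of 11 mural cell and fibroblast markers 2 rose and 0 fell, with a median of -0.33, and 4 values were positive and 7 negative. The 2 were Dcn, at a mean count of 8.35, and Col1a2. Mural cell markers such as Pdgfrb (-0.53) and Kcnj8 (-0.46) were negative and did not pass. Of 8 lens markers 3 rose and 0 fell, with a median of 0.47, and at E17.5 7 of 10 rose. The libraries are of cells sorted for GFP, a gate meant to leave out cells without it. The part of these cell types in the rise of Thbs1 was not tested.

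With Timp3 at 14 days, 6 of 15 Müller glia markers fell and 0 rose (median -0.34). Of 12 endothelial markers 3 fell and 0 rose (median -0.63), and of 6 astrocyte markers 2 fell and 0 rose (median -0.33). The astrocyte markers that fell were Aldoc and Slc1a2, while Gfap, Aldh1l1, S100b and Pdgfra did not pass. Of 12 rod markers 10 fell and 0 rose (median -0.45). Aqp4 fell by 1.11 ± 0.19, Glul by 0.96 ± 0.19 and the vascular receptor gene Flt1 by 0.86 ± 0.21 (adjusted p = 3.55e-07, 1.51e-05 and 0.000999 in the authors' deposited table). At 48 h, 0 of 13 Müller glia markers fell and 1 rose (median -0.35), while at an unadjusted p under 0.05 8 were lower and 2 higher by the authors' DESeq2 values. Of 4 rod markers with an adjusted p at 48 h 0 passed (median -0.51), and 2 were lower at an unadjusted p under 0.05 by the authors' DESeq2 values. At the same time 1 of 10 endothelial markers fell (median -0.37) and 1 of 7 astrocyte markers fell (median -0.39). The endothelial gene was Kdr, at a mean count of 11683, where the next highest of that list was Egfl7 at 172. The astrocyte gene was Slc1a2, at a mean count of 2512, where the next highest was Aldoc at 302. The other endothelial and astrocyte markers did not pass at 48 h. Whether the genes of these lists mark the named cell types at this early age was not tested. Of the pigment epithelium markers 0 of 8 fell and 1 rose at 48 h, and 1 of 11 fell and 0 rose at 14 days, the gene that fell being Rlbp1, which Müller glia express too. The defining pigment epithelium gene Rpe65 was near the limit of detection, at mean counts of 0.857 and 2.77. The sort for GFP applies to these cell types too. Their part in the fall of Timp3 was not tested, and summed levels per group cannot be given without values per library.

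The genes with the pattern most like Thbs1 were Rab3b, Fgl2 and Stk33, at distances of 0.159, 0.501 and 0.517 from its 3 log2 fold changes, among 13165 genes with an adjusted p in each comparison. Rab3b, a vesicle GTPase gene, had 0.55 at 48 h, 3.12 at 14 days and -0.32 in knockout retinas in the authors' deposited tables. Fgl2 had 0.60, 2.79 and -0.19, and Stk33 0.59, 2.98 and 0.02, in the same order of comparisons, in the authors' deposited tables. The genes most like Timp3 were Xylt1, which starts glycosaminoglycan chains on proteoglycans, Rbm20, a splicing factor gene, and Syne3, at distances of 0.148, 0.165 and 0.183. Xylt1 had -0.95, -0.94 and -0.06 in the authors' deposited tables. A distance over 3 values is a coarse measure of likeness.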

How the data were processed

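RNA-seq of 19 mouse retina libraries in 6 groups is deposited as 3 tables, each the authors' own comparison per gene. The submitters' processing notes name Salmon, DESeq2 and MACS2 with mm10, and give neither versions nor design. The log2 fold change, its SE, the p-value and the Benjamini-Hochberg adjusted p were deposited by the authors, the SE for the overexpression tables only. Dividing the fold change by its SE gave the deposited Wald score, named so per the file headers (largest gap 4.45e-07). A signal per gene, the mean normalized count, was deposited by the authors for overexpression alone. The headers give no direction. With Pou3f1 over Gfp cells Pou3f1 is higher, and with knockout over heterozygous retinas it is lower, and the tables were read that way.

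No test was added within a table. The 14 day minus 48 h difference of each gene was set against its combined SE (z test, two-sided). Benjamini-Hochberg adjustment was over all genes that have an adjusted p at both times. The z test was checked on values simulated with normal errors of the deposited SE, as the test assumes. That check covers the calculation and does not show how the test performs on shrunken fold changes. Members, 17 gene lists and tests were chosen with earlier results of these data known, so they are no independent support. Lists are described by counts and medians, without a set test. Genes named besides the members are Pou3f1, overlapping and neighbouring genes, up to 4 called genes per list by adjusted p, synapsins, defining cell markers, and the 3 nearest genes by Euclidean distance, numbered predicted genes left out. Marker genes given as examples were picked among the fixed lists after their values were seen. Positions and transcript lengths are from GENCODE mouse release 21, and promoters from RefSeq, GRCm38.p6. Since separate animals are not named for every library, a p-value covers no more than the spread among these samples, which may be technical. Alternatives were a stricter adjusted p, a 2-fold limit, other sets of genes for the adjustment and another transcript length. Software was matplotlib 3.10.9, scipy 1.17.1, numpy 2.4.6 and pandas 2.3.3 under Python 3.11.15.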

Additional observations from a re-analysis of the deposited data

Results flagged for a closer look

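Thbs1 had different early and late values. The log2 fold change of Pou3f1 over Gfp cells was 3.21 ± 0.24 at 14 days and 0.49 ± 0.22 at 48 h in the authors' deposited tables, and the difference of 2.72 ± 0.33 passed the two-sided z test over all genes (adjusted p = 1.08e-13). Of 5 members that could be tested it was the one that passed. Thbs2, Thbs3, Timp2 and Timp3 did not pass, at differences between -0.70 and 0.26. Age of the cells, the fold change of Pou3f1 itself, the sum of mean counts and the number of libraries differ between the times and cannot be told apart. Outlying samples could not be looked for, since no value per library was used here.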

How the results depend on the processing

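Counts of members called kept their value under an adjusted p under 0.01, under adjustment over all genes with a p-value and, for the overexpression comparisons, under adjustment over genes with a mean count of at least 10. Requiring at least a 2-fold change left 0 members at 48 h and 1 at 14 days, since both falls of Timp3 are under 2-fold, and the same limit left 0 at E17.5. The count of members with a different late and early response stayed at 1 in the 3 alternatives run. Of 85 values of single members under alternatives, 83 stayed on their side of the threshold, and the other 2 are those of Timp3. Under the stricter adjusted p and the 2-fold limit, members that were not called could only stay so. Of 102 list counts, 28 moved by over 1.5 times, 20 of them at an adjusted p under 0.01. Levels per kb moved by over 1.5 times with the union of exons for Timp3 alone. No paired analysis was possible because the tables hold no value per library, which also kept single replicates from being left out. The few reads of Thbs4, Timp1 and Timp4, and those of Thbs2 at 48 h, limit what can be said of these genes. At E17.5 the missing SE and abundance limit all members.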
